A study of Mus musculus with 9 samples.

Results

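Growth arrest after oncogene expression, known as oncogene-induced senescence, runs through a small set of genes. Trp53 encodes p53, the transcription factor that responds to oncogenic and DNA damage stress. Cdkn1a encodes p21, an inhibitor of cyclin-dependent kinases and a direct target of p53. Il6 encodes interleukin-6, a cytokine of the secretory program of senescent cells. EWS/ATF1, the fusion oncoprotein of clear-cell sarcoma, keeps the DNA-binding domain of ATF1, which recognises the cyclic AMP response element (CRE). The question addressed here was where EWS/ATF1 bound around these 3 genes in sarcoma cells, which grow when the fusion is present, and in fibroblasts with related genetic abnormalities, which stop growing.

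Members were all EWS/ATF1 peaks that overlapped 1 of 3 fixed windows of the mm9 mouse genome, and 6 of the 35220 peaks in the deposited lists qualified, 2 of 8090 from G1297 and 4 of 27130 from sarcoma-iPSC MEFs. The Cdkn1a window was chr17:29128000-29338000, the Trp53 window chr11:69294000-69505000 and the Il6 window chr5:30240000-30446000. The rule used positions alone and no measured value. G1297 is a cell line from a sarcoma of EWS/ATF1-inducible mice, in which the transactivator M2rtTA at the Rosa26 locus drives a tetO-controlled, tagged EWS/ATF1 when doxycycline (Dox) is present. The sarcoma MEFs were embryonic fibroblasts from chimeric embryos made with sarcoma iPSC clone #3, reprogrammed from G1297. They carry the same inducible alleles, were enriched over host cells with puromycin, and retain part of the chromosomal abnormalities of the sarcoma. Both were exposed to Dox at 0.2 µg/ml for 12 h, and the fusion was recovered with an antibody to its hemagglutinin (HA) tag and sequenced (ChIP-Seq). The authors report that G1297 proliferates only with Dox, and they began their expression time course from G1297 without Dox. Any difference in earlier exposure to the fusion cannot be told apart from cell type. The labels describe 2 ChIP libraries of G1297 and 1 of the MEFs, each cell type being represented by 1 line or clone and by 1 list of peaks. Values per library are in neither list, so the error of a peak's score is unknown and the cell types were not tested against each other. The labels name no HA ChIP library without Dox, so no control level of HA signal stands beside the peaks. The score of a peak is 10 times the negative log10 of its P value, with 90 corresponding to the threshold of 1e-09, and scores were ranked only within a list, since the read depth behind each list is unknown. The lists carry no expression values, so neither the identity of the cells nor the activity of the genes was examined.

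The windows were 206 to 211 kb wide, 199.1 to 200.3 kb more than the lengths of the genes in GRCm38, or about 100 kb on each side. Because the reference at hand was GRCm38 and the peaks are in mm9, the start of each gene in mm9 was not read, and peak positions are given as distances from the centre of the window. Whether a peak covered a promoter, an exon or an intron was therefore not determined. In GRCm38, 15 other protein-coding genes lie within 100 kb of Trp53, with Wrap53 and Atp1b2 beside it. Cdkn1a and Il6 each have 4 within 100 kb, and Srsf3 and Rab44 flank Cdkn1a.

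The start regions of Cdkn1a and Il6 are shown because each window held a MEF peak close to its centre. The near edges were 0.297 kb away at Cdkn1a and 2.69 kb at Il6, where the other peak was 14.8 kb away. A window centre is not a gene start, and whether these peaks covered the sequences below was not determined. Each sequence runs from 250 bases before to 50 bases after a RefSeq transcript start in GRCm38.p6, on the plus strand. Capitals mark matches to the short CRE site TGACG or its reverse complement CGTCA, and to the AP-1 string TGAGTCA or its reverse complement TGACTCA.
Il6, chr5:30012864-30013163: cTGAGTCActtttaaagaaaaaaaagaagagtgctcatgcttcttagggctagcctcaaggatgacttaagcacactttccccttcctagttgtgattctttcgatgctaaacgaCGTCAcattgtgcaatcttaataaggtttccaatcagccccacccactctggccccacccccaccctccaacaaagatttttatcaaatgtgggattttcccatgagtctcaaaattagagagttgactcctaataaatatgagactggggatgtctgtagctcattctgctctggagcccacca
Cdkn1a, chr17:29090729-29091028: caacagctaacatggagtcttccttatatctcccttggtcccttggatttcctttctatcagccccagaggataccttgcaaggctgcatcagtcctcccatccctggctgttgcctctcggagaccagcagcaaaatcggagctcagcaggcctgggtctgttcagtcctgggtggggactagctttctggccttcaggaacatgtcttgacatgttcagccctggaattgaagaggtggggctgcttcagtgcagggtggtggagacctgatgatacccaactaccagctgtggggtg
Cdkn1a alternative start, chr17:29093519-29093818: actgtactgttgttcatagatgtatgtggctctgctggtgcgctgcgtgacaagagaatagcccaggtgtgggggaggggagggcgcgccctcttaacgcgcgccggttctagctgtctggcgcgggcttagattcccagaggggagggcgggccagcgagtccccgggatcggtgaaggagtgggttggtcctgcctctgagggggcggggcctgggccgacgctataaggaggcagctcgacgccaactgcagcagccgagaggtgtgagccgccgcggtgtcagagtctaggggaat
The Il6 sequence held 1 short CRE site on the minus strand, its first plus-strand base at position -135 from the start, and 1 AP-1 string at position -249. Neither Cdkn1a sequence held a match, nor did the single Trp53 sequence in the same RefSeq set. The full CRE palindrome TGACGTCA was in 0 of these 4 sequences. Of all 32851 RefSeq start regions of this length, 20.8% held the short CRE site, 5.2% the AP-1 string and 1.79% the full palindrome on either strand. The AP-1 string was chosen after the promoters were seen, so the share beside its Il6 match is a description only. Such matches describe letters, not bound sites, and since these positions are in GRCm38 they cannot be set beside the mm9 peaks.

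At Il6, EWS/ATF1 peaks were listed in sarcoma-iPSC MEFs and not in G1297. The MEF list held 2 peaks in the window and the G1297 list 0. The stronger MEF peak lay at chr5:30338813-30340311, spanned 1499 bp and scored 792.56. Its near and far edges were 2.69 and 4.19 kb from the window centre, on the side of lower coordinates. Of the whole MEF list 75.6% scored lower, and of the MEF peaks without a G1297 counterpart 81.1% did. The other MEF peak lay at chr5:30327023-30328215, spanned 1193 bp and scored 639.37, above 70.7% of the list. Both Il6 peaks therefore stood in the upper part of the MEF list by score. The gap between them was 10.6 kb, and such spacing is usual, since 53.1% of 27098 MEF peaks on the assembled chromosomes had a neighbour at this distance or closer.

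No G1297 peak lay near the Il6 pair. The nearest, at chr5:30532367-30533541 with a score of 403.45, was 192.1 kb from the stronger MEF peak and overlapped a weak MEF peak with a score of 103.32, outside the window. Toward lower coordinates the preceding G1297 peak was 1253 kb from the window centre. The stretch without a G1297 peak ran from 29089673 to 30532366 on chromosome 5, a length of 1443 kb. It was longer than 95.4% of the 8060 stretches between consecutive G1297 peaks, whose median was 63.35 kb, although long stretches take up more of the genome than their number implies. In the same stretch the MEF list held 15 peaks with scores from 96.18 to 1564.7 and a median of 246.16, of which 5 reached a score of 500. The Il6 peaks were thus 2 of 15 MEF peaks in a region that lacked G1297 peaks, and 2 others in this region scored higher than either of them. One of these, with a score of 1095.44, was centred at -121739 bp from the window centre, just outside the window, beside a MEF peak of 489.65 at -123044 bp, the minus sign marking lower coordinates.

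**Figure D1:**
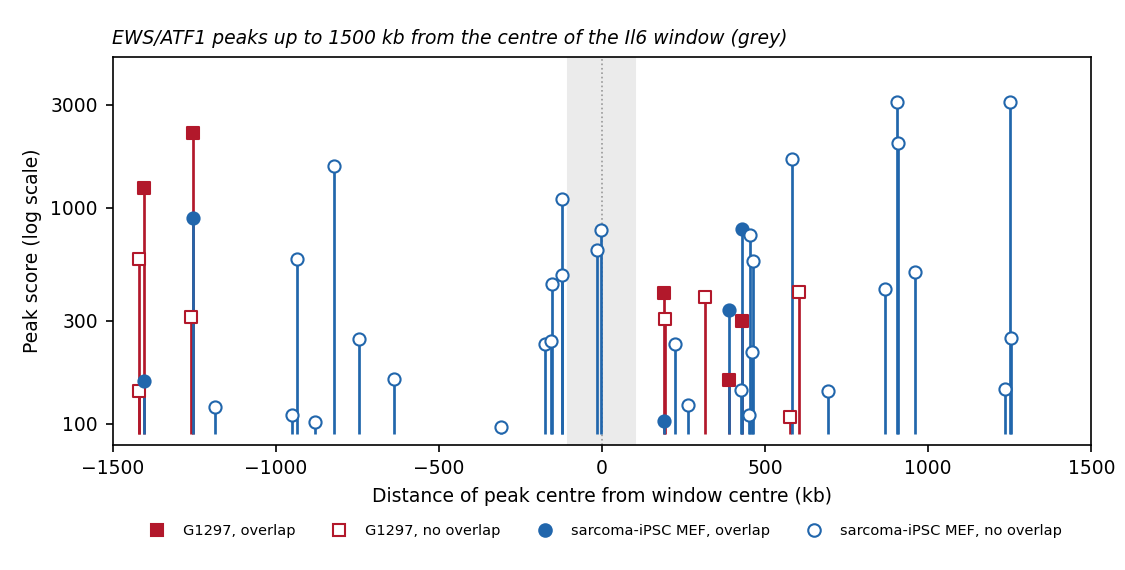
Peaks of G1297 (red squares) and sarcoma-iPSC MEFs (blue circles) up to 1500 kb from the centre of the Il6 window (grey), with the distance of each peak's centre in kb on the x axis and its score on a log y axis, filled where it overlaps a peak of the other list. No red symbol lies in the stretch of 1443 kb around the window, where 15 blue symbols stand, 2 of them in the window.

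At Cdkn1a, 1 peak was listed in the MEFs and 0 in G1297, but the MEF peak was close to the threshold. It lay at chr17:29232123-29232703, spanned 581 bp and scored 102.02. The window centre was 0.297 kb from its near edge, the shortest such distance among the 6 members. Only 5.59% of all MEF peaks had a lower score, and 1.3% were narrower. It ranked 25609 of 27130 from the top, a score that 5 other MEF peaks shared exactly. This peak was thus the most central of the members and among the weakest of its list.

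Few peaks were listed in the stretch next to the Cdkn1a peak. In G1297, no peak was listed from 29058527 to 29446954 on chromosome 17, a stretch of 388.4 kb that was longer than 82% of such stretches in the list. As at Il6, long stretches take up more of the genome than their number implies, so a fixed point tends to fall in one. The last G1297 peak before the stretch had a score of 101.34, higher than 7.12% of the G1297 list, and was 173.6 kb from the MEF peak. The MEF list held 3 peaks in this stretch, with scores of 94.72, 102.02 and 106.8, and the highest of them exceeded 7.66% of the MEF list. The nearest strong binding was shared by both cell types. It was centred 214536 bp from the window centre in G1297, with a score of 1324.88, and 214484 bp in the MEFs, with a score of 2776.82. Within 1 Mb of the window centre, 11 of the 13 G1297 peaks and 11 of the 28 MEF peaks overlapped a peak of the other list, where 62.8% of all G1297 peaks and 18.5% of all MEF peaks did.

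At Trp53, the lists shared a strong peak at the outer edge of the window and no peak was listed near its centre in either. The G1297 peak lay at chr11:69292409-69294098, spanned 1690 bp and scored 3100, a value that 208 other G1297 peaks had and that only 11 exceeded. In the MEF list 1062 peaks also scored 3100, so scores pile up at this value and do not order the peaks that share it. The MEF peak lay at chr11:69292399-69294128, spanned 1730 bp and scored 2119.99, above 92% of the MEF list. The whole G1297 peak fell inside the MEF peak, whose edges were 10 and 30 bp further out, and the centres were 10 bp apart. Score ranks were high on both sides, with 97.3% of the G1297 list lower. Among peaks shared by the lists, the G1297 peak scored higher than 96% and the MEF peak higher than 76.6%.

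This shared site belonged to the window only by its last bases. Of the G1297 peak 99 bp, or 5.86% of its width, lay inside the window, and of the MEF peak 129 bp, or 7.46%. Its near edge was 105 kb from the window centre. When a peak had to have its centre in the window, the Trp53 window held 1 G1297 peak and 0 MEF peaks. That remaining G1297 peak, at chr11:69485726-69486267, was 542 bp wide with a score of 92.6, and 1.66% of the G1297 list scored lower. It was 86.2 kb from the window centre on the side of higher coordinates and 86.45 kb from the nearest MEF peak, which had a score of 526.44 and lay outside the window. Between the shared site and that MEF peak, 278.6 kb of chromosome 11 held no MEF peak, longer than 93.3% of the 27077 stretches between MEF peaks. Here too, long stretches take up more of the genome than their number implies. Just outside the edge that the shared site crossed, a MEF peak of 302.48 was centred at -124039 bp and a G1297 peak of 99.05 at -142482 bp from the window centre. Further out stood a MEF peak of 165.25 at -147137 bp and a G1297 peak of 550.85 at -152623 bp, neither of which had a counterpart in the other list.

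**Figure D2:**
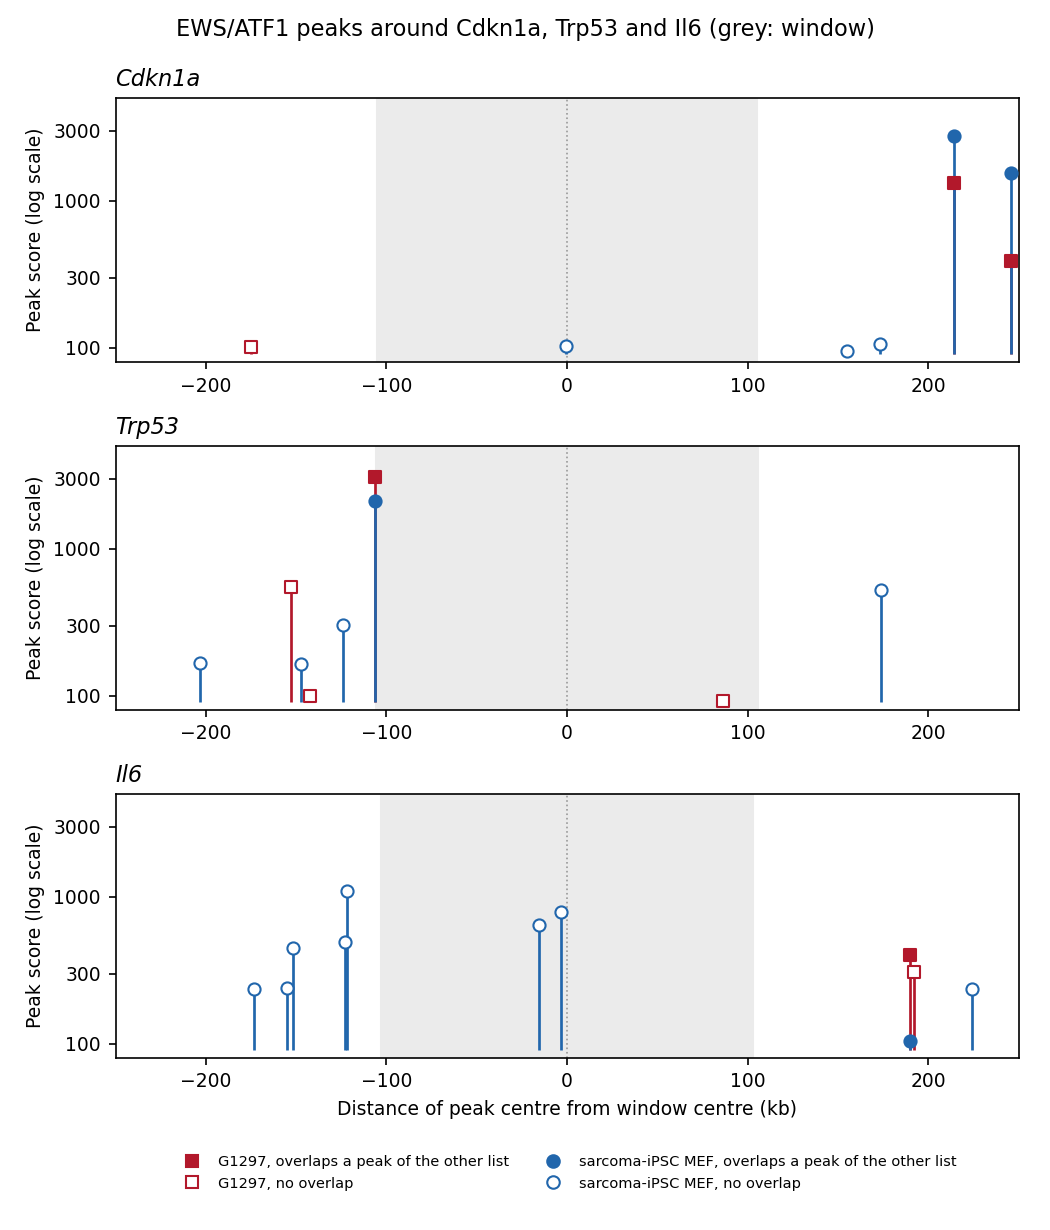
Peaks within 250 kb of each window centre, with distance in kb on the x axis and score on a log y axis, in G1297 (red squares) and sarcoma-iPSC MEFs (blue circles), filled where a peak overlaps one of the other list. The grey windows hold 1 blue symbol at Cdkn1a, the shared pair at the left edge plus 1 red symbol at Trp53, and 2 blue symbols at Il6.

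The 6 members covered nearly the whole range of scores. In G1297 they stood at both ends of the list, at 97.3% and 1.66%, and both lay in the Trp53 window, far from its centre. In the MEFs they stood at 92% in the Trp53 window, at 75.6% and 70.7% in the Il6 window and at 5.59% in the Cdkn1a window. A score of at least 500 was reached by both Il6 peaks and by the shared site at the edge of the Trp53 window, and not by the Cdkn1a peak or the inner Trp53 peak.

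**Figure D3:**
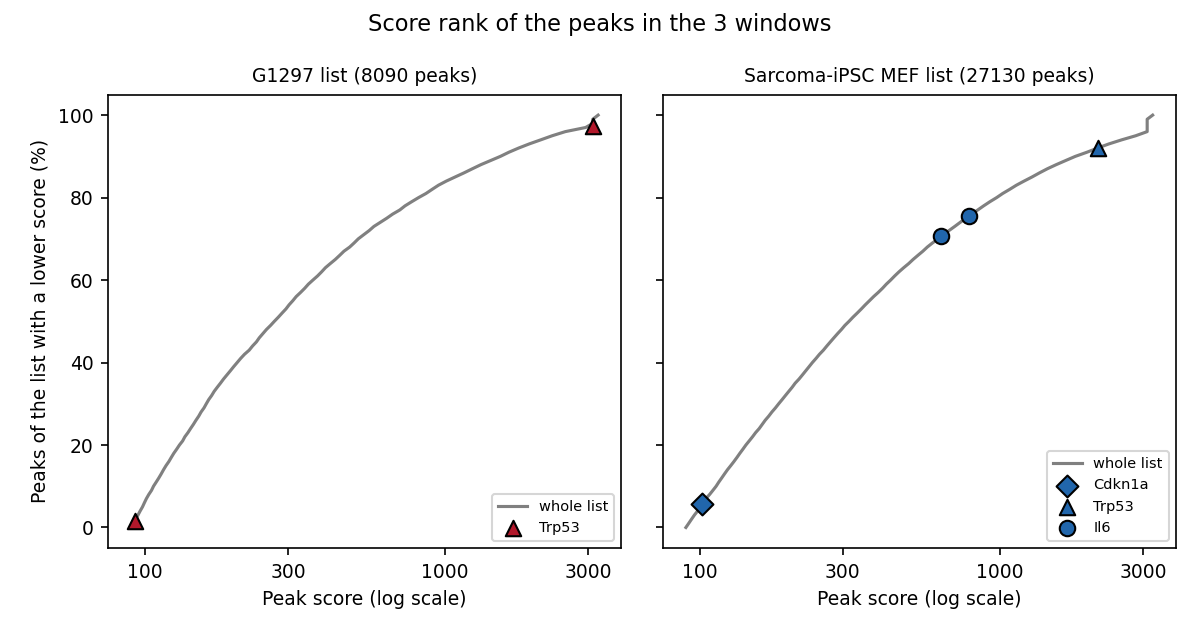
Share of each list with a lower score (y axis, %) against peak score (log x axis), for the whole list (grey line) and for the member peaks of the Cdkn1a (diamond), Trp53 (triangles) and Il6 (circles) windows. In G1297 the peaks of the Trp53 window sit at 97.3% and 1.66%. In the MEFs those of the Il6 window sit at 75.6% and 70.7% and that of the Cdkn1a window at 5.59%.

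Overlap between the lists was limited to the Trp53 site. One of 2 G1297 members overlapped a MEF peak, against 62.8% of all G1297 peaks. In the MEFs 1 of 4 members overlapped a G1297 peak, against 18.5% of all MEF peaks. With so few members, these counts do not distinguish the windows from the lists as a whole.

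Counts of this size were also common elsewhere in the genome. The 21 chromosomes were divided into 12590 consecutive tiles of 209 kb, the mean width of the windows, and a peak was counted as for the windows. At least 1 G1297 peak was in 29.1% of tiles and at least 1 MEF peak in 60.4%, while 37.4% held no peak of either list. The 0 G1297 peaks at Cdkn1a and Il6 were therefore the usual count among tiles. The tiles were placed without regard to genes, while each window was set around a gene, and windows around other genes were not counted. MEF peaks without any G1297 peak were found in 33.6% of tiles, exactly 1 MEF peak and no G1297 peak, as at Cdkn1a, in 12.3%, and 2 or more MEF peaks without a G1297 peak, as at Il6, in 21.2%. When the MEF peaks also had to reach a score of 500, as both Il6 peaks do, 6.31% of tiles qualified. At least 2 G1297 peaks, as at Trp53, were in 15.4% of tiles and at least 2 MEF peaks in 44.4%. More G1297 than MEF peaks, as at Trp53, were found in 4.96% of tiles, and at Trp53 this order rested on a peak with a score of 92.6.

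**Figure D4:**
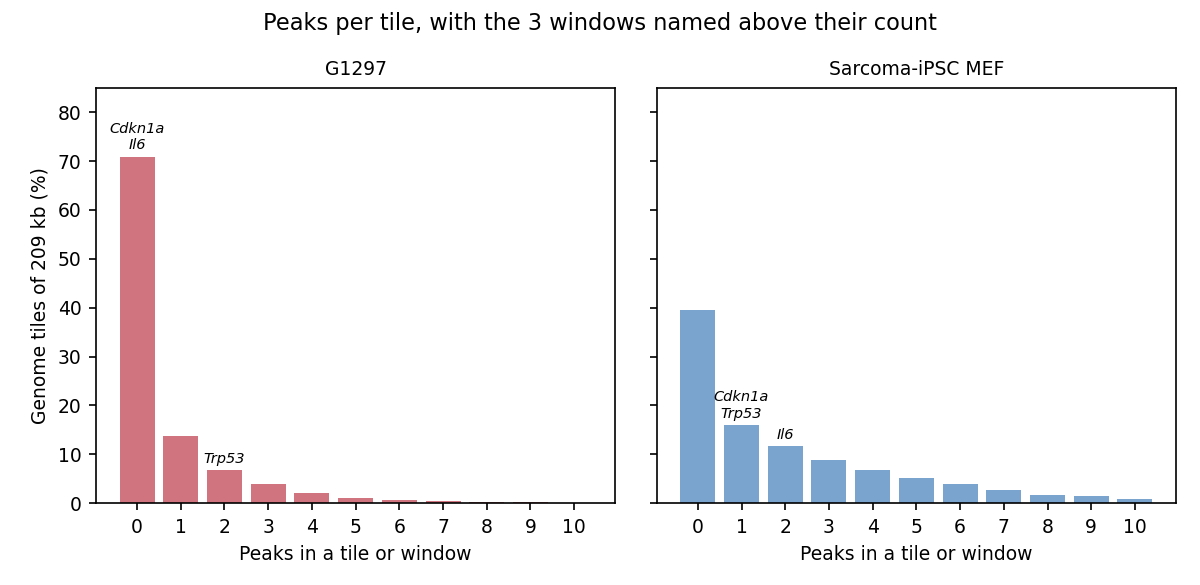
Share of 209-kb genome tiles (y axis, %) by number of peaks in the tile (x axis, 0 to 10; fuller tiles are not drawn), in G1297 (left) and sarcoma-iPSC MEFs (right), with each window's gene written above the bar of its own count. Cdkn1a and Il6 stand over the highest G1297 bar, at 0 peaks.

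Set against the mean density of their chromosomes, the MEF windows were not rich in peaks. Chromosome 5 held 11.8 MEF peaks per Mb, chromosome 11 held 11.3 and chromosome 17 held 10.3, which correspond to 2.42, 2.38 and 2.16 peaks per window width. The counts of 2 at Il6, 1 at Trp53 and 1 at Cdkn1a were each below these means. Counts per tile were skewed, however, with a mean of 2.16 MEF peaks and a median of 1. The counts at Trp53 and Cdkn1a equalled that median, and the count at Il6 was above it. In G1297 the corresponding means were 0.814, 0.753 and 0.788, below the 2 peaks at Trp53 and above the 0 at the other genes. A gene without a listed peak had no region past the authors' threshold, and weaker binding was not detectable from the lists.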

How the data were processed

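EWS/ATF1 ChIP-Seq peaks of G1297 and sarcoma-iPSC MEFs 12 h after Dox were analysed. Per the labels, the authors aligned reads to mm9 with Bowtie2 2.2.0 and called peaks with MACS 1.4.2, and deposited for each peak a position and a score. Which libraries and input entered each list is not given in the sources used here. In all, 191 peaks ended past their GRCm38 chromosome ends, so the lists were kept in mm9 and no coordinate was converted. Starts were written 1-based.

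Peaks were assigned to windows and matched between lists by at least 1 bp of overlap, ranked by the percent of their list with a lower score, and set beside 209-kb tiles running to each chromosome's last peak (Python 3.11.15, pandas 2.3.3, numpy 2.4.6). The functions were tested on simulated lists. Windows and genes were chosen with earlier results of these data known, and the AP-1 string after the promoters were seen. Every member peak is named, since no window held more than 12. Libraries with Ebf1-KRAB or Nanog-KRAB, and sequence motifs in peaks and peaks at other senescence genes, which need an mm9 genome, were not analysed here. Alternatives varied the window, assignment, overlap, score threshold, MEF list size, peak joining, rank and tiles.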

Additional observations from a re-analysis of the deposited data

How the results depend on the processing

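Of 94 comparisons with an alternative, 70 counts stayed within 1.5 times of the value reported, or values within its 95% interval, and 24 moved further. The interval is binomial, treats peaks or tiles as independent draws and holds no experimental error. Many unchanged values could not have moved, such as counts of 0 under a stricter setting, so this tally does not measure stability. The definition of overlap and the joining of close peaks moved none, but neither could have done so here. The Trp53 pair overlapped almost completely, and every other member was at least 86.45 kb from the other list. No member was closer than 10.6 kb to a peak of its own list. With windows extended by 100 kb on each side, the counts in G1297 became 1 at Cdkn1a, 4 at Trp53 and 2 at Il6, and in the MEFs 3, 5 and 8, so the absence of G1297 peaks at Cdkn1a and Il6 holds for the windows as set. With the peak centre in the window, Trp53 held 1 G1297 and 0 MEF peaks, and in the central 50% of the window 0 and 0. At a score of at least 200 or 500, Cdkn1a held 0 MEF peaks and Trp53 held 1 G1297 peak. With only the 8090 top-scoring MEF peaks kept, Cdkn1a again held 0. Both Il6 peaks remained in the MEF list at each of these settings. The lowest score among the 8090 was 629.1, however, close below the 639.37 of the weaker Il6 peak. By width in place of score, the highest peaks exceeded 1.3% of the MEF list at Cdkn1a, 92.9% at Trp53 and 87.3% at Il6, and 96.4% of the G1297 list at Trp53. Counting equal scores as lower gave 99.9% for the latter, and ranking within the chromosome gave 93% at Trp53 and 74.9% at Il6 in the MEFs. On autosomes only, 30.8% of tiles held a G1297 peak and 63.4% a MEF peak.

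No paired analysis was possible because the lists hold no values per library, although the labels number ChIP and input libraries of G1297 alike. Leaving out a replicate was likewise not possible. The alternative for motifs in peaks was not run, since it needs an mm9 genome. The unknown depth limits every statement that a peak is absent.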

Other observations

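Within 1 Mb of the Il6 window centre, the window included, 3 of the 7 G1297 peaks and 3 of the 30 MEF peaks had a counterpart in the other list. Around Trp53 these counts were 3 of 9 and 3 of 16. Over the whole lists, 62.8% of G1297 peaks and 18.5% of MEF peaks had one, and with so few peaks the counts do not set either region apart. No peak within 1 Mb scored higher in its own list than the site at the edge of the Trp53 window, at 3100 in G1297 and 2119.99 in the MEFs. These values describe the lists and were not tested.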
